A study of Macaca mulatta with 13 samples.

Results

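Transcripts of claspin and of the replication checkpoint proteins that work with it were followed in peripheral blood mononuclear cells of infant rhesus macaques. The set was named as 10 genes, and it comprised every probe set that the platform annotation pairs with exactly 1 of their symbols. Of the 10 genes, 8 had a probe set, CLSPN, CHEK1, CHEK2, TIMELESS, TIPIN, TOPBP1, RAD17 and RAD9A, with 12 probe sets in all among 52707 on the array that were not controls. ATR and ATRIP were paired with none and were not analysed here. CLSPN was chosen by its measured values, high in the animals not reared by their mothers, and the other genes by their place in the same pathway.

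The animals were 4 months old and contributed 1 Affymetrix rhesus array each, from total RNA of their mononuclear cells. The labels give 4 animals as surrogate-peer reared, 4 as peer reared and 5 as maternally reared, and the series asks whether expression differs with early rearing. As background, peer-reared infants grow up with others of their age and surrogate-peer-reared infants with an inanimate surrogate and limited contact with peers; the labels do not describe the housing. The surrogate-peer and peer animals together are called non-maternal here, and arrays are numbered within each group only to name them.

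Stalled replication forks expose single-stranded DNA, which recruits the kinase ATR through its partner ATRIP. RAD17 loads a ring-shaped clamp that contains RAD9A, the clamp brings in TOPBP1, and TOPBP1 activates ATR. Claspin, with TIMELESS and TIPIN at the fork, presents the kinase CHEK1 to ATR, while CHEK2 is best known as the effector of the sister kinase ATM at broken ends. Several of these genes, claspin and CHEK1 among them, are transcribed mainly in cells that divide, and most mononuclear cells of resting blood do not.

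Values are log2 expression by robust multi-array average, so 1 unit is a doubling. They compare arrays for 1 probe set and do not rank genes against each other. Of the defining markers of blood mononuclear cells that were measured, most were well above the filter on low values of 6.04. CD28 was close to it at 6.41 to 6.81, and BCL11B ran across it at 5.64 to 7.26. The T cell markers CD3E, CD3G, CD2, CD247 and IL7R had no probe set paired with their symbol alone and were not measured. Over the 13 arrays CD8A ran from 10.6 to 12.1, MS4A1 from 10.27 to 12.97, GZMB from 10.67 to 13.01 and CD14 from 10.5 to 12.8. Platelet and red cell transcripts were present as well, with PPBP at 12.7 to 14.3 and HBB at 9.74 to 12.2. In whole mononuclear cells, fewer cells of a type and less RNA per cell cannot be told apart.

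The label of the set needs a qualification before its values are read, because the CLSPN probe sets do not behave alike. Probe set MmuSTS.4112.1.S1_at read 6.65, 9.25, 10.99 and 10.22 in surrogate-peer arrays 1 to 4, 10.35, 8.29, 11.28 and 8.66 in peer arrays 1 to 4, and 6.83, 7.16, 6.58, 6.67 and 6.96 in maternal arrays 1 to 5. Probe set MmugDNA.37957.1.S1_at, paired with the same gene, ran from 3.82 to 4.21 in surrogate-peer animals, between 3.98 and 4.15 in peer animals and between 3.96 and 4.19 in maternal animals. The first set spread over more than 4 log2 units, and the second was dim and flat on every array, under the filter, with overlapping groups.

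**Figure D1:**
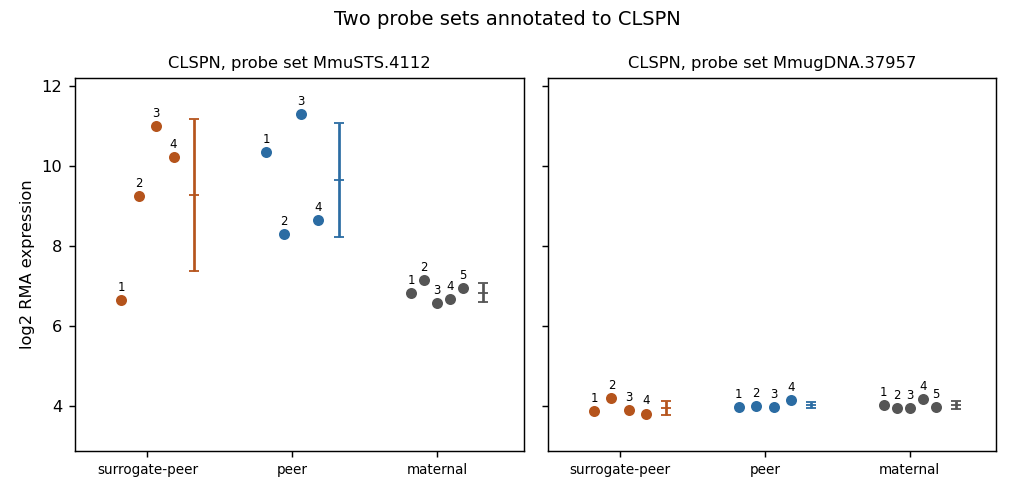
Log2 expression (vertical axis) of the CLSPN probe sets MmuSTS.4112 (left panel) and MmugDNA.37957 (right panel) in the surrogate-peer, peer and maternal arrays; points are single arrays with their number, and the bar beside each group is its mean ± SD. MmuSTS.4112 lies between 6.65 and 11.28 in the surrogate-peer and peer arrays and between 6.58 and 7.16 in the maternal arrays, while MmugDNA.37957 stays between 3.82 and 4.21 throughout.

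The identifier of the bright probe set is also out of place among its neighbours. The 8 consecutive identifiers from MmuSTS.4107 to MmuSTS.4114 are paired with EFNA3, EFNA5, EFNB1, EFNB2, EGF, CLSPN, EGR2 and EHD3, an alphabetical run that only CLSPN breaks. Across the array 66.9% of 2409 neighbouring MmuSTS pairs with symbols are in alphabetical order, so breaks are common. Of the early growth response genes, EGR2 is paired with 2 probe sets, EGR4 with 1, and EGR1 and EGR3 with 0. Probe sequences were not used here, so which transcript the bright probe set measures was not tested. It is therefore called the CLSPN-annotated probe set MmuSTS.4112, and its values are not read as claspin message.

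At this probe set 7 of the 8 non-maternal arrays lay above every maternal array. The exception was surrogate-peer array 1, at 6.65, inside the maternal range. Over the maternal mean, peer arrays were 2.73-fold to 21.7-fold higher and surrogate-peer arrays 2 to 4 were 5.31-fold to 17.8-fold higher, against 0.876-fold for surrogate-peer array 1. Surrogate-peer animals averaged 9.28 ± 1.89 (SD, n = 4), peer animals 9.65 ± 1.41 (SD, n = 4) and maternal animals 6.84 ± 0.23 (SD, n = 5).

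The difference was 2.62 ± 0.66 (SE) on the log2 scale for non-maternal against maternal animals, 2.44 ± 0.78 for surrogate-peer and 2.81 ± 0.78 for peer animals. These values chose the gene, so they are given without a test. Without surrogate-peer array 1 the surrogate-peer value was 3.31. Sample titles carry an unexplained number, which ran from 9 to 32 for surrogate-peer, from 35 to 47 for peer and from 31 to 55 for maternal animals. With it as a covariate the surrogate-peer value was 0.83 ± 1.18. Surrogate-peer and peer animals, a contrast the choice did not use, differed by -0.37 ± 0.82 with a 95% interval from -2.15 to 1.41 (limma adjusted p = 0.9999). Without surrogate-peer array 1 that difference was 0.51, and over all alternative settings it ran from -1.77 to 0.51.

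The spread within the non-maternal animals was large for this array. The SD over their 8 arrays was 1.56, against a median of 0.16 over all 26352 tested probe sets, and 34 tested probe sets had a larger one. Over the 5 maternal arrays the SD was 0.23, which equals the median of 0.23 over tested probe sets. Since the fit shares 1 estimate of spread over the groups, the SE given for this probe set averages a wide and a narrow group.

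Likeness in pattern was measured as Pearson's r with the CLSPN-annotated probe set MmuSTS.4112 over the 13 arrays, which share the difference between groups, and is given as a description. The 6 genes with the highest r were EGR2, a zinc finger factor switched on in stimulated T cells (0.977), ATF1, a factor of the cyclic AMP response family (0.896), CASP8, a protease of death receptor signalling (0.894), SRSF5, a splicing factor (0.891), GABPB1, a subunit of a transcription factor of the ETS family (0.890), and TRIO, a guanine nucleotide exchange factor (0.883). EGR2 at probe set MmunewRS.383.1.S1_at read 5.85, 8.59, 9.38 and 8.75 in surrogate-peer, 9.16, 7.29, 9.11 and 7.39 in peer, and 5.98, 5.63, 5.27, 5.30 and 5.80 in maternal arrays. It held the same exception, surrogate-peer array 1 at the maternal level. It was picked for its r over these same arrays, so that likeness is no further result. Surrogate-peer array 1 and all maternal arrays lay under the filter of 6.04, which this probe set passed only through the other non-maternal arrays. The other EGR2 probe set, MmuSTS.4113.1.S1_at, whose identifier follows that of the CLSPN-annotated one, stayed between 5.37 and 5.69 (r = -0.03). Other probe sets of the remaining genes gave r from -0.52 to 0.70 for TRIO and 0.37 for GABPB1. They gave 0.16 to 0.83 for ATF1, 0.58 to 0.89 for SRSF5 and 0.77 for CASP8.

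Over the 8 non-maternal arrays alone, a choice made after the values were seen, the highest r belonged to FOS (0.970), EGR2 (0.967), RGS1 (0.960), PBRM1 (0.938), XRCC5 (0.935) and MTMR6 (0.933). Other probe sets gave -0.06 to 0.81 for PBRM1, 0.52 for XRCC5 and 0.42 for MTMR6. XRCC5 ran only from 10.985 to 11.202 on these 8 arrays, and its r over the 13 arrays was 0.62. FOS is an immediate early transcription factor and RGS1 a regulator of G protein signalling induced in activated lymphocytes. FOS read 9.72, 12.2, 13.4 and 12.5 in surrogate-peer arrays 1 to 4, 12.4, 11.6, 13.3 and 11.1 in peer arrays 1 to 4, and 10.0 to 11.6 in maternal arrays. RGS1 read 6.63, 8.12, 10.7 and 9.39 in surrogate-peer, 10.1, 8.16, 10.1 and 8.07 in peer, and 7.31 to 8.59 in maternal arrays. Surrogate-peer array 1 was the lowest of all 13 arrays for both genes, and surrogate-peer array 3 and peer array 3 were among the highest. Their maternal values overlapped those of the other groups more than at the CLSPN-annotated probe set.

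**Figure D2:**
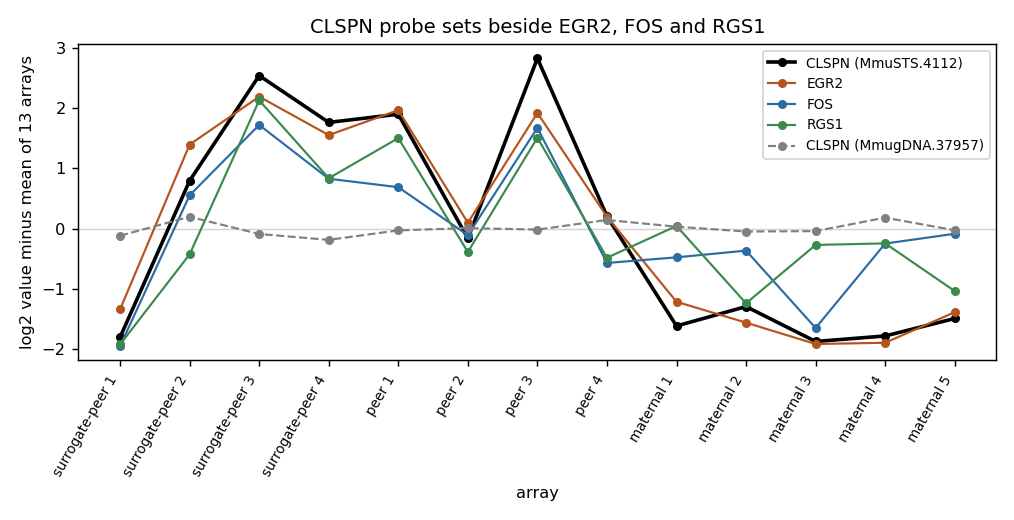
Log2 value minus the mean of the 13 arrays (vertical axis) for both CLSPN probe sets, EGR2 (MmunewRS.383), FOS and RGS1 on each array (horizontal axis, surrogate-peer, peer, then maternal). The CLSPN-annotated probe set MmuSTS.4112 follows EGR2 (r = 0.977 over 13 arrays), and the dashed line of MmugDNA.37957 stays flat.

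No checkpoint member came near that likeness. Pearson's r with the CLSPN-annotated probe set over the 13 arrays was highest at 0.69 for TOPBP1, 0.66 and 0.56 for the RAD17 probe sets and 0.35 for CHEK1. It was -0.19 for MmugDNA.37957, the other CLSPN probe set, and -0.30 and -0.52 for those of TIMELESS. Over the 8 non-maternal arrays it was highest for CHEK1, at 0.69 and under the filter on low values, then 0.60 for TOPBP1. Next came 0.28 for the dimmer RAD17 probe set, 0.26 for the brighter RAD9A probe set and 0.12 for the brighter RAD17 probe set.

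The remaining members were tested with limma over all probe sets in 1 fit of the 13 arrays. Of the 10 probe sets other than CLSPN, 7 passed the filter on low values, for 6 genes. RAD17 and TOPBP1 rose in non-maternal animals, with 3 probe sets past a limma adjusted p of 0.05 and 0 lower. In the same contrast 8.0% of all tested probe sets passed, made up of 6.64% higher and 1.35% lower. Of all calls 83.1% were higher in the values as deposited, 56.7% after centring each array and 66.3% after quantile normalization. The median log2 fold change was 0.30 over these 7 probe sets, with 5 positive and 2 negative, and 0.01 over all tested. That median was the value of TIPIN, which did not pass, and RAD17 entered it with both of its probe sets. It is therefore not read as a shift of the whole set. None of the 7 separated the non-maternal from the maternal arrays without overlap, where 1.89% of tested probe sets did so upward and 0.971% downward.

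RAD17, the clamp loader subunit, gave the largest fold change among them. Its brighter probe set MmuSTS.3086.1.S1_at read 8.46, 8.40, 8.53 and 8.47 in surrogate-peer arrays 1 to 4, 8.68, 8.59, 8.49 and 8.60 in peer arrays 1 to 4, and 8.57, 8.04, 8.18, 7.98 and 7.66 in maternal arrays 1 to 5. The non-maternal arrays lay between 8.40 and 8.68, and of the maternal arrays only array 1 fell inside that band. The log2 fold change was 0.44 ± 0.12 (SE, limma adjusted p = 0.0421).

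The other RAD17 probe set, MmugDNA.13070.1.S1_s_at, read 7.03, 6.91, 7.30 and 6.93 in surrogate-peer, 7.38, 7.15, 6.996 and 6.94 in peer, and 7.01, 6.68, 6.596, 6.64 and 6.51 in maternal arrays. The same maternal array was highest and the same one lowest, and the fold change was 0.39 ± 0.11 (limma adjusted p = 0.0434). Both probe sets therefore gave the same direction and a similar size.

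RAD9A, a subunit of the clamp, did not pass. At its brighter probe set, surrogate-peer animals averaged 7.82 ± 0.11 (SD, n = 4), peer animals 7.74 ± 0.07 (SD, n = 4) and maternal animals 7.82 ± 0.16 (SD, n = 5), with a fold change of -0.04 ± 0.08 (limma adjusted p = 0.738). Its other probe set lay under the filter, between 4.81 and 5.17 on all arrays.

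TOPBP1, the activator of ATR, moved like RAD17. Its probe set read 8.67, 8.99, 9.10 and 8.86 in surrogate-peer arrays 1 to 4, 8.94, 8.93, 8.86 and 8.92 in peer arrays 1 to 4, and 8.89, 8.47, 8.60, 8.42 and 8.18 in maternal arrays 1 to 5. Maternal arrays 2 to 5 lay below every non-maternal array, and maternal array 1 among them. The fold change was 0.40 ± 0.11 (limma adjusted p = 0.0441). Peer values were tight, with an SD of 0.04, against 0.19 in surrogate-peer and 0.26 in maternal animals.

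**Figure D3:**
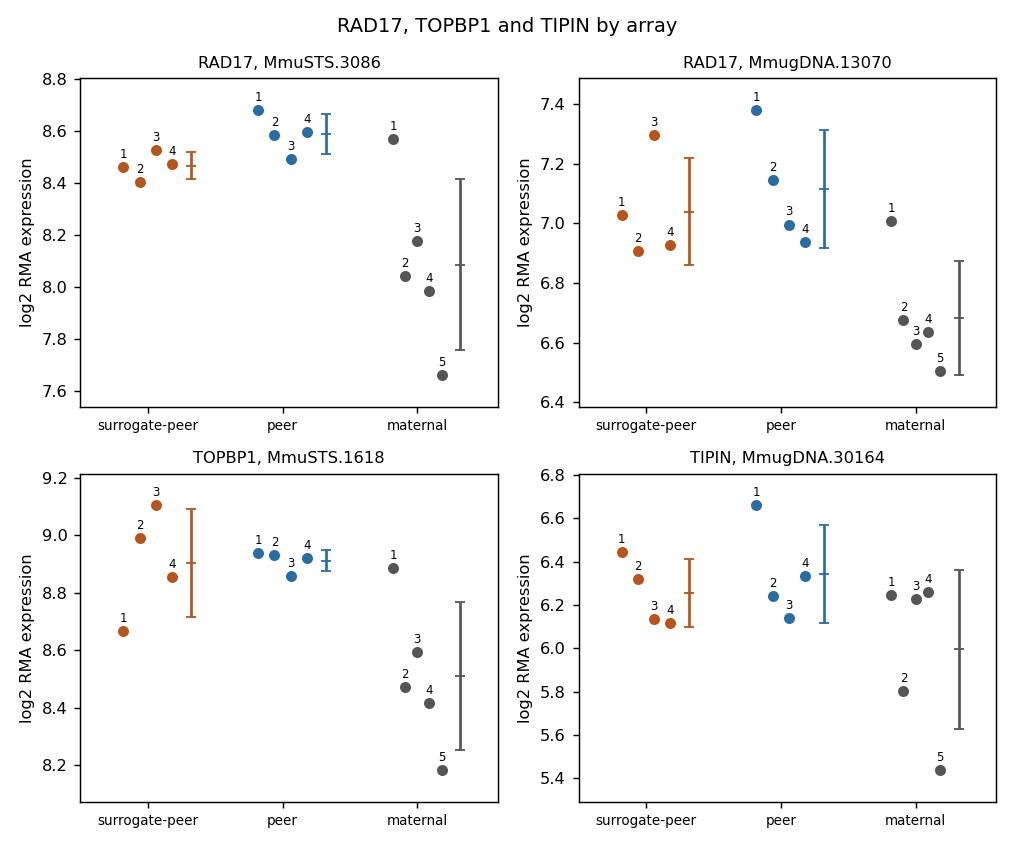
Log2 expression (vertical axes) of the RAD17 probe sets, TOPBP1 and TIPIN in the surrogate-peer, peer and maternal arrays; points are single arrays with their number, and bars are group means ± SD. Maternal array 1 lies among the non-maternal arrays for RAD17 and TOPBP1, and maternal array 5 is the lowest in all 4 panels.

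These 3 calls lay close to the threshold. Without maternal array 1 all 3 passed, and of the other arrays only leaving out surrogate-peer array 1 kept a call, that of TOPBP1. For the brighter RAD17 probe set the call held in 5 of 22 alternative settings and in 1 of the 13 fits that left out 1 array, for the other in 3 of 21 and 1 of 13, and for TOPBP1 in 4 of 22 and 2 of 13. Adjusted p over those settings ran from 0.00290 to 0.156, from 0.00905 to 0.163 and from 0.00621 to 0.177, and every setting kept the positive sign. Over these settings the fold changes were smallest without maternal arrays 2 and 5, a setting added after seeing the data, at 0.29 and 0.33 for RAD17 and 0.28 for TOPBP1.

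Other measures were set beside these values as a description. The summed level of the T cell markers, as the mean log2 of 7 measured genes of 14 on the list, was 9.61 to 10.1 in non-maternal and 8.998 to 9.70 in maternal arrays. It was lowest on maternal arrays 5 and 2, at 8.998 and 9.003, and highest of the maternal arrays on array 1. Among the non-maternal arrays it was lowest on surrogate-peer array 2, at 9.61, where TOPBP1 read 8.99. On surrogate-peer array 1, where TOPBP1 was lowest of these at 8.67, it was 9.99. All 7 T cell markers had positive fold changes and 1, BCL11B, passed (0.70 ± 0.17, limma adjusted p = 0.0313). BCL11B averaged 6.57 in non-maternal and 5.87 in maternal arrays, the latter under the filter of 6.04. It was therefore tested only through the group where it was high. The monocyte markers, 10 measured of 11, averaged 10.6 to 11.5 in non-maternal and 10.7 to 11.9 in maternal arrays, with 0 risen and 1 fallen. Of 9 measured B cell markers all 9 had negative fold changes, with a median of -0.70, and 1 fell. Of 10 NK and cytotoxic markers 1 rose and 4 fell, with a median of -0.84. Of 6 dendritic cell and basophil markers 2 rose, FCER1A (1.91) and CPA3 (1.34), and of 8 plasma cell markers 1 fell, PRDM1 (-0.73). The neutrophil, platelet and erythroid lists, with 4, 6 and 2 measured, had 0 calls. Counting a call at any tested probe set, in either direction, 3 T cell, 2 B cell and 6 NK and cytotoxic genes passed. The other marker lists kept their counts. Over all tested probe sets 6.64% were called higher and 1.35% lower. The log2 ratio of 3' to 5' signal was 1.33 to 1.74 in non-maternal and 1.55 to 2.23 in maternal arrays. It was 1.93 on maternal array 1 and 1.61 on maternal array 5. With that ratio as a covariate the fold changes were 0.61 and 0.53 for RAD17 and 0.50 for TOPBP1, none past the threshold (limma adjusted p = 0.0550, 0.0653 and 0.0895). The part of cell makeup in them was not tested.

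TIPIN and TIMELESS, the fork protection pair that works with claspin, did not pass and had opposite signs. TIPIN read 6.45, 6.32, 6.13 and 6.12 in surrogate-peer arrays 1 to 4, 6.66, 6.24, 6.14 and 6.33 in peer arrays 1 to 4, and 6.25, 5.80, 6.23, 6.26 and 5.44 in maternal arrays 1 to 5. Maternal arrays 2 and 5 were the lowest, and the other maternal arrays lay among the non-maternal ones. The maternal mean of 5.99 lay under the filter of 6.04, and the non-maternal mean of 6.30 lay above it. TIPIN thus entered the tests only through the group where it was high, which limits what its p-values can show. The fold change was 0.30 ± 0.15 (limma adjusted p = 0.190), and 0.05 without maternal arrays 2 and 5. With the 3' to 5' ratio as a covariate it was 0.77 ± 0.14 (limma adjusted p = 0.0206), and with the title number 0.61 ± 0.15 (limma adjusted p = 0.0262).

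For TIMELESS, surrogate-peer animals averaged 6.85 ± 0.08 (SD, n = 4), peer animals 6.91 ± 0.03 (SD, n = 4) and maternal animals 6.95 ± 0.19 (SD, n = 5), and its fold change was -0.07 ± 0.08 (limma adjusted p = 0.549). All 8 non-maternal arrays, at 6.73 to 6.93, lay inside the maternal range of 6.68 to 7.15. Its other probe set was under the filter, at 4.60 to 4.99 in non-maternal and 4.79 to 5.17 in maternal arrays.

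Of the effector kinases, CHEK2 did not pass and CHEK1 was under the filter. For CHEK2, surrogate-peer animals averaged 7.18 ± 0.10 (SD, n = 4), peer animals 7.32 ± 0.14 (SD, n = 4) and maternal animals 7.15 ± 0.12 (SD, n = 5), with a fold change of 0.10 ± 0.08 (limma adjusted p = 0.411). CHEK1, the direct partner of claspin, read 5.01 to 5.36 in surrogate-peer arrays, between 5.06 and 5.51 in peer arrays and between 4.90 and 5.60 in maternal arrays, so the groups overlapped throughout, and the array with the highest value was maternal array 4.

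**Figure D4:**
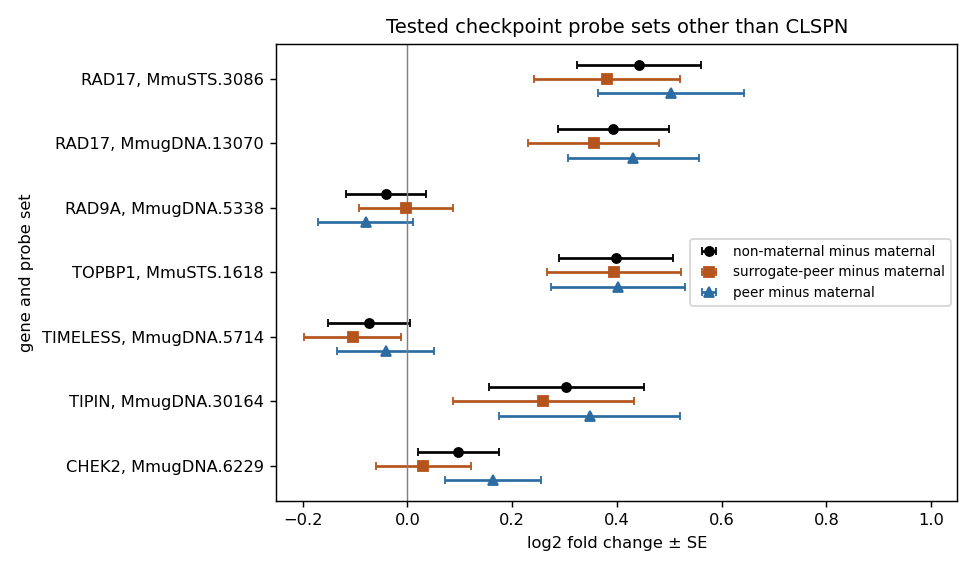
Log2 fold change ± SE (horizontal axis) of the 7 tested probe sets other than CLSPN, for non-maternal (circles), surrogate-peer (squares) and peer animals (triangles), each minus maternal. RAD17 and TOPBP1 lie between 0.36 and 0.50, and RAD9A, TIMELESS and CHEK2 between -0.10 and 0.16.

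Taken separately, neither rearing group gave a call for these members. The contrasts share the maternal arrays, so each is given with its own values. In surrogate-peer animals RAD17 gave 0.38 ± 0.14 and 0.36 ± 0.13 and TOPBP1 0.39 ± 0.13, with limma adjusted p from 0.133 to 0.162. In peer animals RAD17 gave 0.50 ± 0.14 and 0.43 ± 0.13 and TOPBP1 0.40 ± 0.13, with limma adjusted p from 0.0707 to 0.0938. The calls were 0 of 7 in both, where 0% of all tested probe sets passed for surrogate-peer and 0.353% for peer animals (0.311% higher, 0.0417% lower). None of the 7 separated either group from the maternal arrays without overlap, where 2.96% of tested probe sets did so upward and 2.48% downward for surrogate-peer, and 5.63% and 3.85% for peer animals. An unadjusted limma p under 0.05 was reached by 3 of 7 in each, against 20.3% of all tested probe sets for surrogate-peer and 24.9% for peer animals. Without maternal array 1 all 3 of these probe sets passed in both contrasts.

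Surrogate-peer and peer animals did not differ detectably in any member. The 7 fold changes of surrogate-peer over peer ran from -0.13 for CHEK2 to 0.08 for RAD9A, with 6 of 7 negative, 0 calls, and 0 at an unadjusted limma p under 0.05. No probe set of the whole array passed (0%), and 1.83% had an unadjusted p under 0.05. Groups without overlap were seen for 0 of the 7 members, and for 0.869% of tested probe sets upward and 0.873% downward. The 95% intervals were -0.44 to 0.20 and -0.36 to 0.21 for the RAD17 probe sets, -0.30 to 0.28 for TOPBP1 and -0.48 to 0.31 for TIPIN, so differences of up to those bounds fit these data.

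Other genes of the pathway had fold changes in both directions in the non-maternal animals, and few calls, against 6.64% higher and 1.35% lower over all tested probe sets. Of 40 checkpoint and fork protection genes, 25 had a probe set and 20 were tested at their brightest one; 1 rose and 0 fell, and the median fold change was -0.01, with 9 positive and 11 negative. The riser was GADD45A, a stress-induced gene that halts the cell cycle (0.54 ± 0.11, limma adjusted p = 0.0252), and its other probe sets gave 0.51, which passed, and -0.42, which did not. At a probe set other than the brightest, RPA2, a subunit of the single-strand binding protein, rose (0.37 against 0.19 at the brightest) and WEE1, a kinase that restrains CDK1, fell (-0.34 against -0.09). Both were picked out for that after their values were seen.

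Of 34 replisome and origin firing genes, 26 had a probe set and 23 were tested; 0 rose and 1 fell, with a median of -0.01. POLD1, the catalytic subunit of DNA polymerase delta, fell (-0.69 ± 0.14, limma adjusted p = 0.0232), while its other probe set gave -0.06. Of 27 proliferation genes, 20 had a probe set and 15 were tested; 0 passed in either direction at the brightest probe set, 12 were negative and the median was -0.08. The nearest were MYBL2 (-0.30 ± 0.09, limma adjusted p = 0.0624) and E2F2 (-0.21 ± 0.10, adjusted p = 0.175), transcription factors of cycling cells. E2F1 fell at a dimmer probe set (-0.33, limma adjusted p = 0.0252, against -0.08 at the brightest). Without maternal arrays 2 and 5, all 3 lists had 0 calls, GADD45A and POLD1 included, and all 15 proliferation genes were negative, with a median of -0.23. With the 3' to 5' ratio as a covariate the balance turned: 12 of 20 checkpoint genes were positive (median 0.13, 2 risen), 18 of 23 replisome genes were positive (median 0.13, 0 calls, POLD1 lost) and 9 of 15 proliferation genes were positive (median 0.04, 1 risen). The direction of these lists therefore depended on that covariate. The mean log2 level of the 15 proliferation genes was 7.33 to 7.63 in non-maternal and 7.29 to 7.81 in maternal arrays, so it overlapped throughout. On surrogate-peer array 3 and peer array 3, where the CLSPN-annotated probe set was highest, it was 7.46 and 7.33.

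**Figure D5:**
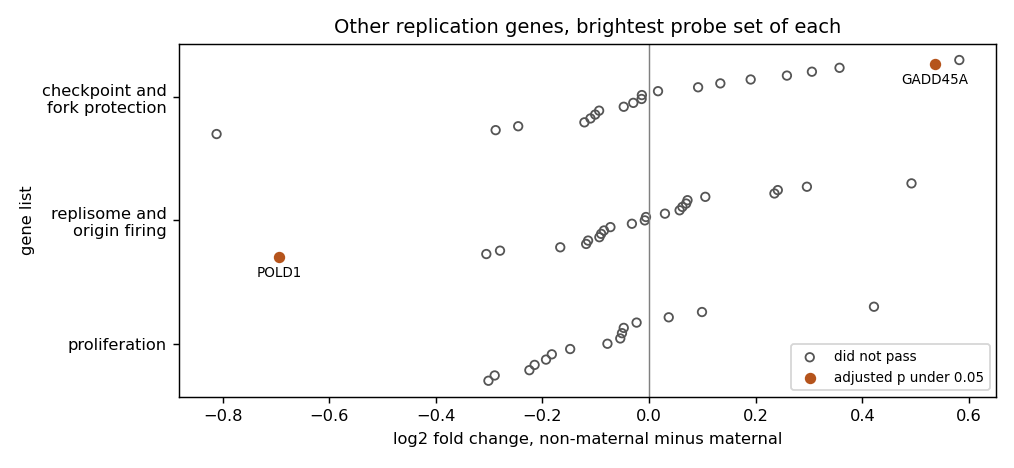
Log2 fold change of non-maternal minus maternal animals (horizontal axis) for each tested gene of the checkpoint, replisome and proliferation lists, at its brightest probe set; filled points passed an adjusted p of 0.05. GADD45A (0.54) and POLD1 (-0.69) are the filled points, and the list medians lie between -0.08 and -0.01.

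In the separate contrasts none of these 3 lists had a call over all tested probe sets. GADD45A gave 0.51 ± 0.14 in surrogate-peer and 0.56 ± 0.14 in peer animals (limma adjusted p = 0.0990 and 0.0611), and POLD1 -0.99 ± 0.17 and -0.39 ± 0.17 (limma adjusted p = 0.0586 and 0.168). For POLD1, surrogate-peer minus peer gave -0.60 ± 0.17 and did not pass (limma adjusted p = 0.9999).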

How the data were processed

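Log2 values per probe set were deposited for 13 arrays; the submitters' processing notes name robust multi-array average, with neither settings nor joint normalization stated. Of 52865 probe sets, 158 controls were dropped, and the 26352 whose mean exceeded the median mean (6.04) were tested. The platform annotation gives 24956 probe sets 1 symbol, 361 several and 27390 none, and only the first kind was named. All 13 arrays entered 1 fit in limma 3.58.1 (R 4.3.3), two-sided, with Benjamini-Hochberg adjustment over all tested probe sets, after a check on simulated data. Precision is limited by the number of arrays, and p-values set each difference against the spread between these samples within groups.

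The members, lists and contrasts were chosen with earlier results of these data known. Named genes were all members, from each process list up to 6 past the threshold in each direction or else the 2 with the smallest p, and the 6 genes most correlated with the CLSPN probe set of largest SD. Each list gene was represented by its brightest tested probe set. The 3' to 5' ratio came from control probe sets. Alternatives changed the filter, normalization, weights, covariates, prior and arrays.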

Additional observations from a re-analysis of the deposited data

Results flagged for a closer look

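Within groups of 4 or 5 arrays, 3 of 36 combinations of member probe set and group held an array flagged by Dixon's test, where chance flags about 1 in 20. The test takes the gap relative to the range of the group, so small gaps can be flagged. CHEK2 was 7.10 on peer array 3, against 7.37 to 7.40 on the other peer arrays. TIMELESS was 6.73 on surrogate-peer array 3, against 6.88 to 6.89 on the others, and 6.87 on peer array 1, against 6.92 to 6.93. No group of the CLSPN-annotated probe set was among them.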

How the results depend on the processing

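No paired analysis was possible because the labels give no replicate numbers that tie arrays of different groups. For non-maternal against maternal animals, 3 of 7 member probe sets other than CLSPN passed; the count was 0 without the filter (of 10), after centring, after quantile normalization and without maternal arrays 2 and 5, 1 with array weights or the 3' to 5' ratio as a covariate, 4 with the title number, and 0 to 3 when 1 array was left out. With the stricter filter it was 2 of 3. For peer against maternal animals the count of 0 became 1 with array weights, 2 with the title number or the 3' to 5' ratio, and 0 to 3 when 1 array was left out; for surrogate-peer animals it was 0 to 3. For surrogate-peer against peer animals it was 0 under every alternative run. Of all tested probe sets 2107 were called for non-maternal animals, against 1337 after quantile normalization, 37 without maternal arrays 2 and 5, 30 without maternal array 4 and 4823 without maternal array 1. For peer animals 93 were called, against 50 without the filter, 1 with the stricter one, 5 after centring, 6 after quantile normalization, 1543 with weights, 1819 with the title number, 1478 with the 3' to 5' ratio, 0 with only the arrays compared and 3484 without maternal array 1. For surrogate-peer animals 0 were called, against 33 after centring, 25 after quantile normalization and 2095 without maternal array 1. The cause was not tested.

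Signs also turned, for values that did not pass in either sign. With the 3' to 5' ratio RAD9A gave 0.0717 for non-maternal, 0.0086 for peer and 0.135 for surrogate-peer animals, and CHEK2 -0.0597 for surrogate-peer animals. RAD9A gave 0.0095 for surrogate-peer animals with weights, and TIMELESS 0.0281 for peer animals without maternal arrays 2 and 5. CHEK2 for surrogate-peer animals was -0.0313 after centring, -0.0024 after quantile normalization and -0.0017 with the title number. In surrogate-peer minus peer, the title number gave 0.144 and 0.189 for RAD17, 0.383 for TIPIN, -0.0158 for RAD9A and 0.150 for TOPBP1, the 3' to 5' ratio 0.114 for TIPIN and 0.0346 for TOPBP1, and weights 0.057 for the CLSPN-annotated probe set. Leaving out 1 array spanned zero for RAD9A against maternal in non-maternal (-0.0856 to 0.0174) and surrogate-peer animals (-0.047 to 0.056). Against maternal it also did so for TIMELESS in peer (-0.110 to 0.0098) and CHEK2 in surrogate-peer animals (-0.0073 to 0.080). In surrogate-peer minus peer it did so for the dimmer RAD17 probe set (-0.162 to 0.0122), TIPIN (-0.156 to 0.0171), TOPBP1 (-0.074 to 0.0713) and the CLSPN-annotated probe set (-0.941 to 0.508). The brighter RAD17 probe set stayed negative there (-0.154 to -0.0909).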
